A study of Mus musculus with 38 samples.

Results

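The 34 genes described here encode the machinery of late G2 phase and mitosis: the cyclins and Cdk1, the mitotic and spindle checkpoint kinases, centromere and kinetochore proteins, spindle motors, cytokinesis factors and partners of the ubiquitin ligases that end mitosis. They were taken by gene name from the 54532 genes counted in oligodendrocyte precursor cells (OPCs), the dividing glial cells that give rise to myelinating oligodendrocytes. All 34 were found and all 34 were among the 22798 genes tested. Members were chosen by their known role and not by a measured value, but with earlier results of these data known.

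The cells came from forebrains of mice aged P6 to P7 and were purified by panning, with 2 plates that deplete microglia and endothelial cells followed by a plate coated with antibody to PDGFRA, a growth factor receptor of OPCs. Each library pooled 2 mice. Every mouse was Bmal1fl/fl, that is, homozygous for an allele of Bmal1 in which Cre recombinase removes the part coding for the DNA-binding domain. Mice without the transgene (NG2::Cre-;Bmal1fl/fl) are called WT, and mice carrying it (NG2::Cre+;Bmal1fl/fl) are called KO. The NG2 (Cspg4) promoter that drives Cre is active in OPCs and also in mural cells of vessels, and no group carried Cre with intact Bmal1, so Cre itself and loss of Bmal1 cannot be told apart. Cells were taken under a light cycle of 12 h light and 12 h dark at zeitgeber time (ZT) 0, when lights go on, and at ZT6, ZT12, when lights go off, and ZT18. WT had 4, 5, 6 and 4 libraries at these times and KO had 4, 7, 4 and 4, which makes 38. The comparisons ask whether these genes differ with time of day and whether they differ when the clock factor BMAL1 is disrupted.

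Mitotic genes are transcribed mainly in G2 phase. In resting cells and in G1 a repressor complex named DREAM holds them off, and in cycling cells the B-MYB form of that complex, with FOXM1 and NF-Y, turns them on. Their proteins then act in sequence: cyclin B with Cdk1 starts mitosis, the kinetochore ties chromosomes to the spindle, the checkpoint delays anaphase until all are attached, and the anaphase-promoting complex (APC/C) destroys cyclin B and releases the sister chromatids. RNA of these genes in a tissue is therefore widely read as a sign of proliferating cells, and OPCs divide briskly in the first postnatal weeks. In RNA from many cells, fewer cells in mitosis and less RNA per mitotic cell cannot be told apart.

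Counts per library totalled 19.4 to 39.0 M with a median of 25.9 M, and the 34 members held 0.175% to 0.255% of them. A single member had between 333 and 15040 raw counts in a library. Arntl, the symbol of Bmal1, ranged from 19.4 to 33.2 CPM (counts per M of the scaled library) in WT and from 17.7 to 23.4 CPM in KO, and its log2 fold change over all times was -0.17 (edgeR quasi-likelihood test, adjusted p = 0.183). A gene count includes the exons that Cre leaves, so this value does not check the deletion. The share of ribosomal RNA was 0.0848% to 0.263% in 8 libraries (WT ZT12 replicates 4 to 6, KO ZT6 replicate 7 and all 4 KO ZT18) and 0.409% to 1.34% in the other 30, which at ZT18 coincides with genotype. The submitters' design text says that both sexes were pooled. Xist and Y-linked RNA nevertheless showed mice of a single sex in 13 libraries. Among them were 4 of the 6 WT ZT12 libraries (female) and 2 of the 4 WT ZT18 libraries (male). OPC markers were present throughout: all 20 had counts in every library and their summed level was 17620 to 26420 CPM, while microglial markers summed to 4937 to 22560 CPM, with none of the 20 at 0. RNA of microglia, which also divide at this age, is thus in every library, and a value below belongs to the purified mixture.

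Promoter windows of 300 bases, from 250 before to 50 after the annotated transcription start, were available for 31 members (RefSeq, GRCm38.p6) and were searched on both strands for 3 motifs: CCAAT, the site of NF-Y; TTTGAA, the core of the cell cycle genes homology region (CHR), which binds the DREAM and B-MYB complexes; and CACGTG, the E-box bound by BMAL1 with CLOCK. Aurkb, Ccna2 and Tpx2 were not matched. CCAAT was found in 24 of 31 member windows (77.4%), against 37.4% of 32851 promoters of the same length, and at least 2 copies were found in 18 (58.1% against 11.7%). TTTGAA was found in 25 (80.6% against 17.9%), with at least 2 copies in 7 (22.6% against 2.31%). Both stood in 21 windows (67.7% against 6.95%). The E-box was found in 2, Anln and Ttk, which is 6.45% against 7.15% of all promoters. The motifs were not spread evenly: the median CCAAT match lay 72.5 bases before the start and the median TTTGAA match 5 bases after it. Matches of these letters are a description and do not show binding.

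Shown next are the 5 windows of the genes that the results turn on: Cenpa and Kif23, which varied with time of day, Bub1 and Kif20b, called in comparisons of the genotypes, and Cdc20, with the smallest p-value of the members at ZT18. Capitals mark CCAAT (or ATTGG, its reverse complement) and TTTGAA.
Cenpa, chr5:30666636-30666935, plus strand: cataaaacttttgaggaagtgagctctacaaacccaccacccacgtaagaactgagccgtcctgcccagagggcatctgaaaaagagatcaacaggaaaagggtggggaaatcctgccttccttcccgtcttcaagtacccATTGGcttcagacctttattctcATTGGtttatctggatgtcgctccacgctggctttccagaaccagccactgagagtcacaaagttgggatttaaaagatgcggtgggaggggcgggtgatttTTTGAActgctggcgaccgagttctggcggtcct
Kif23, chr9:61946750-61947049, minus strand: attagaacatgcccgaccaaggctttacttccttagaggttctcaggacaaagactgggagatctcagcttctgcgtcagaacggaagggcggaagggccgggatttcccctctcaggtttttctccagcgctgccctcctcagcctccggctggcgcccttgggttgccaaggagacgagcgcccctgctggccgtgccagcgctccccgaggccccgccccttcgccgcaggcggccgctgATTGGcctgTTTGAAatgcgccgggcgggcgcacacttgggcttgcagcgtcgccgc
Bub1, chr2:127831810-127832109, minus strand: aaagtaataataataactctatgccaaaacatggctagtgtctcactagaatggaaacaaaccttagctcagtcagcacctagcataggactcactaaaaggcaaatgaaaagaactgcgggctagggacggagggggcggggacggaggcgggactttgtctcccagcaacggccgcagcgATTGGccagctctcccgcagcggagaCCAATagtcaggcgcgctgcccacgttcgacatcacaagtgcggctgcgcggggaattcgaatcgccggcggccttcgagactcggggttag
Kif20b, chr19:34922108-34922407, plus strand: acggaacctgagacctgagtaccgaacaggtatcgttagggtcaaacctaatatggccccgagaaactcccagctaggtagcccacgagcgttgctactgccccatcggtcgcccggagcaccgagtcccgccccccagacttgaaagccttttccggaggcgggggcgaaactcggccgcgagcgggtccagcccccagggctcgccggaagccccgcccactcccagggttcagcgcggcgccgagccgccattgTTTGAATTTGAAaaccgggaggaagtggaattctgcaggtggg
Cdc20, chr4:118437294-118437593, minus strand: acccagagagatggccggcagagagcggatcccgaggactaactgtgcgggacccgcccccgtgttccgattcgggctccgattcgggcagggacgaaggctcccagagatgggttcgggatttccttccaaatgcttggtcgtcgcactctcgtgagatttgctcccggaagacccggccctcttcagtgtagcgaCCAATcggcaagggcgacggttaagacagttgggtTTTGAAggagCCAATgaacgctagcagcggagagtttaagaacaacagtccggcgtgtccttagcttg
Cenpa has 2 CCAAT matches upstream and a TTTGAA just inside the transcript. Kif23 has 1 of each, a few bases apart. Bub1 has 2 CCAAT matches facing opposite ways and no TTTGAA, whereas Kif20b has no CCAAT and 2 adjoining copies of TTTGAA. Cdc20 has TTTGAA between its 2 CCAAT matches. None of the 5 windows holds CACGTG.

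**Figure D1:**
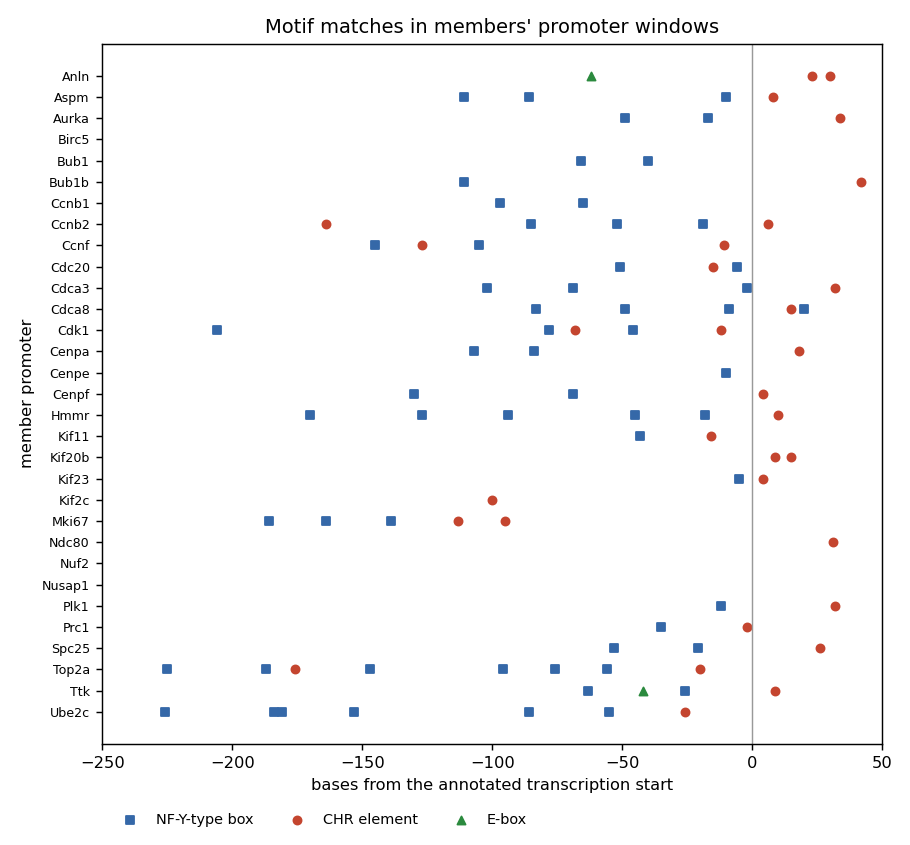
Positions of motif matches in the promoter windows of 31 members (rows), in bases from the annotated transcription start (grey line, horizontal axis); squares are CCAAT, the NF-Y-type box, circles are the CHR element TTTGAA and triangles are the E-box CACGTG. Squares lie mostly before the start, with a median of -72.5, circles crowd around it, with a median of 5, and triangles are present only for Anln and Ttk.

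Levels were compared between genes as mean CPM per kb of gene model, over all 38 libraries. Mki67, the proliferation marker that coats mitotic chromosomes, was highest at 34.2 CPM per kb, and Anln, the actin and septin scaffold of the cleavage furrow, was lowest at 3.61. Next after Mki67 came Cdc20, the activator of the APC/C, at 29.0, Top2a, the enzyme that untangles sister chromatids, at 27.1, and Ccnb2 (cyclin B2) at 23.8. The level thus spanned roughly an order of magnitude across the members.

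Among cyclins and their kinase, Ccna2 (cyclin A2) stood at 19.5 CPM per kb, Ccnb1 (cyclin B1) at 18.3 and Cdk1 at 11.9. The ubiquitin ligase partners included, beside Cdc20, the conjugating enzyme of the APC/C, Ube2c, at 22.2, Cdca3, a trigger of mitotic entry, at 15.1, and Ccnf (cyclin F), at 8.65. Of the kinases, Plk1, which acts from mitotic entry to cytokinesis, stood at 14.5, the checkpoint protein Bub1b at 11.1, its relative Bub1 at 9.56, Aurka, which builds spindle poles, at 8.65, and Ttk, which starts the checkpoint signal, at 4.22. Chromosomal passenger genes, whose complex corrects faulty attachments, were close together, with Aurkb at 10.5, Birc5 at 10.5 and Cdca8 at 8.66.

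Centromere and kinetochore genes lay lower. Cenpa, the histone variant that marks centromeres, stood at 10.5 CPM per kb, the subunits of the microtubule-binding NDC80 complex Spc25, Nuf2 and Ndc80 at 7.33, 6.81 and 3.77, the kinetochore motor Cenpe at 7.14 and the large coiled-coil protein Cenpf at 6.09. Among spindle genes, the bipolar motor Kif11 and the spindle assembly factor Tpx2 stood at 19.9 and 20.4, Nusap1, a bundler of spindle microtubules, at 11.5, Prc1, which bundles the midzone, at 7.71, Hmmr, a spindle-pole protein, at 7.31, the depolymerising kinesin Kif2c at 6.98, Aspm, a spindle-pole protein of neural progenitors, at 6.41, and the midzone kinesins Kif23 and Kif20b at 5.79 and 4.78.

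The members varied together from library to library. After each group's mean was subtracted, 555 of the 561 pairs of members had a positive Pearson r over the 38 libraries, with a median of 0.51 and a range of -0.10 to 0.87. Hmmr (0.88), Cdc20 (0.87) and Tpx2 (0.87) followed the mean of the other members most closely, and Cenpf (0.35) and Kif20b (0.45) least. All members in a library share its depth, base composition and purity, which can differ between libraries, so the correlations are descriptions. Of 12540 other protein-coding genes, those most like the members' mean were Cdkn2c (r = 0.89), which encodes the CDK4 and CDK6 inhibitor p18, Ckap2l (0.85), a spindle protein, and Kif20a (0.82), a midzone kinesin. Behind them stood Tmpo, Npr1, Pfn1, Glb1, Tmem43, Nucb1, Lmf2, Ddost, Mad2l1, Mcm5, Incenp and Kif18b, at 0.80 to 0.77. By list, within-group r with the members was 0.94 for 75 other mitosis genes, 0.73 for subunits and activators of the DREAM and B-MYB complexes, and 0.69 both for DNA replication genes and for G1 cyclins, kinases and inhibitors. Microglial markers had r = 0.56 (rho 0.48), OPC markers 0.00 and astrocyte markers -0.01.

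**Figure D2:**
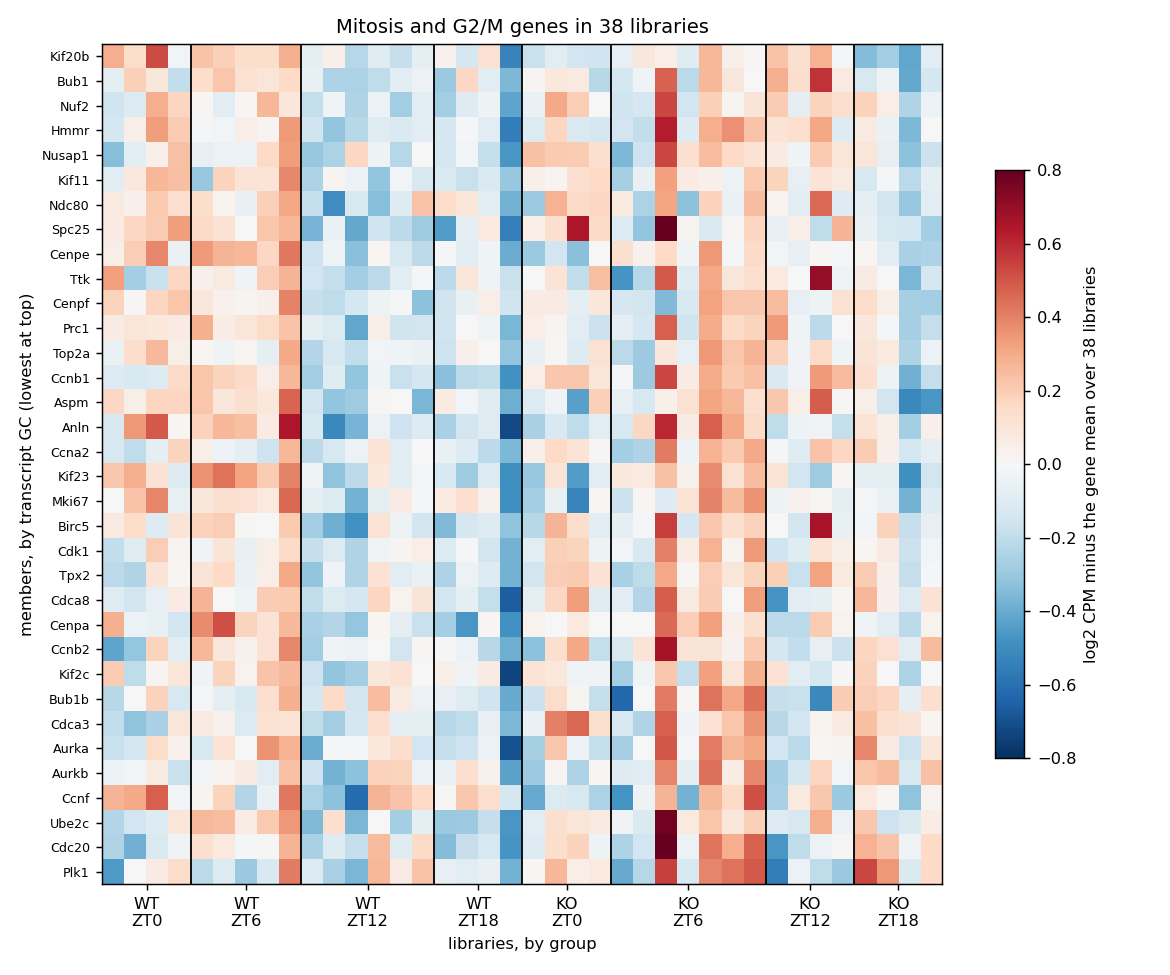
Level of each of the 34 members (rows, ordered by transcript GC content with the lowest at the top) in each of the 38 libraries (columns, grouped by genotype and time, black lines between groups), as log2 CPM minus the gene's mean over all libraries (colour scale from -0.8 to 0.8). WT ZT18 replicate 4 is blue in nearly every row and KO ZT6 replicate 3 is red in most, which shows how far single libraries move all members together.

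In WT cells the members were highest around midday and lowest at night. The mean over the 34, in log2 CPM, was 5.66 ± 0.08 (SD, n = 4) at ZT0, 5.76 ± 0.10 (n = 5) at ZT6, 5.51 ± 0.10 (n = 6) at ZT12 and 5.45 ± 0.17 (n = 4) at ZT18. The group mean of 26 of 34 members peaked at ZT6, where 26.6% of all genes tested had their peak. Another 7 peaked at ZT0 (28.3% of all genes) and Plk1 at ZT12 (25.1%). The lowest group mean was at ZT18 for 22 members (22.2% of all genes) and at ZT12 for 12 (26.1%). From ZT6 to ZT18 the fitted log2 difference was negative for 34 of 34 members, with a median of -0.28, against -0.00 and 50.4% negative over all genes tested. All roles showed it, with medians of -0.19 (Mki67 and Top2a) to -0.35 (chromosomal passengers). The lowest library in WT was ZT18 replicate 4, at 5.20, and the highest ZT6 replicate 5, at 5.94.

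Tested as dependence on time of day over the 4 WT groups (3 degrees of freedom), 7 of 34 members passed at an adjusted p under 0.05, against 4.91% of all genes: Cenpa, Cenpe, Kif23, Anln, Kif20b, Ccnb1 and Ube2c. Unadjusted p was under 0.05 for 17 of 34, against 17.5% of all genes. The called members come from centromere, midzone, furrow, cyclin and APC/C functions rather than from a single step.

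Cenpa counted 74.2, 58.9, 58.4 and 54.7 CPM in the WT libraries at ZT0 and 79.0, 86.7, 68.8, 65.8 and 72.9 at ZT6. At ZT12 it ranged from 49.1 to 61.5 with a median of 52.7, and at ZT18 it counted 50.4, 44.0, 61.3 and 43.4. All 5 ZT6 libraries were above all 10 taken at ZT12 and ZT18. The fitted log2 difference was -0.46 ± 0.10 (SE) from ZT6 to ZT12 and -0.59 ± 0.11 from ZT6 to ZT18 (time of day, edgeR adjusted p = 0.00113).

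Cenpe, the plus-end motor that carries chromosomes to the metaphase plate, counted 63.3, 69.8, 79.5 and 58.8 CPM at ZT0 and 77.2, 73.7, 73.3, 68.5 and 81.5 at ZT6. It ranged from 48.4 to 61.5 at ZT12, median 55.1, and counted 60.6, 57.5, 59.4 and 46.2 at ZT18. The ZT6 libraries again lay wholly above those of ZT12 and ZT18, by log2 0.43 and 0.42 (edgeR adjusted p = 0.00119).

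Kif23, the kinesin of the centralspindlin complex that positions the cleavage furrow, counted 52.3, 55.1, 49.0 and 42.1 CPM at ZT0 and 57.9, 61.1, 56.3, 51.8 and 59.3 at ZT6. It ranged from 36.1 to 47.8 at ZT12, median 43.3, and counted 41.5, 37.1, 41.8 and 32.2 at ZT18. No ZT6 library overlapped ZT12 or ZT18, and the difference from ZT6 to ZT18 was -0.59 ± 0.11 on the log2 scale (edgeR adjusted p = 0.00132).

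Anln counted 29.3, 40.8, 45.0 and 32.4 CPM at ZT0 and 36.5, 38.4, 37.9, 33.5 and 50.2 at ZT6, against 22.4 to 31.0 at ZT12, median 29.0, and 26.7, 28.9, 30.0 and 19.4 at ZT18. Here too ZT6 stood apart from ZT12 and ZT18, while ZT0 overlapped all other times (edgeR adjusted p = 0.00507). Kif20b differed in order: its WT mean was highest at ZT0, 39.1 ± 6.28 CPM (n = 4), then 37.7 ± 1.59 (n = 5) at ZT6, 30.7 ± 2.03 (n = 6) at ZT12 and 30.6 ± 5.76 (n = 4) at ZT18 (adjusted p = 0.0245).

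Ccnb1 averaged 73.9 ± 7.21, 85.9 ± 4.69, 67.5 ± 5.04 and 61.6 ± 5.53 CPM at ZT0, ZT6, ZT12 and ZT18, with an edgeR adjusted p of 0.0259. Ube2c averaged 53.3 ± 5.34, 66.6 ± 4.77, 51.5 ± 7.43 and 46.0 ± 3.67 CPM (edgeR adjusted p = 0.0279). Both peaked at ZT6 and were lowest at ZT18. Of the 38 fits that each left out a library, Ccnb1 lost its call in 6, without ZT6 replicate 1, 2, 3 or 5 or ZT18 replicate 1 or 4 (adjusted p up to 0.0831), and Ube2c in 7, without ZT6 replicate 1, 2, 4 or 5 or ZT18 replicate 1, 2 or 4 (up to 0.0885). Kif20b lost its call without ZT0 replicate 1 or 3 or ZT18 replicate 2 (up to 0.0817), without the low-rRNA libraries (0.160), with low rRNA as a term in the model (0.0697) and with GC and length correction (0.472). Cenpa, Cenpe, Kif23 and Anln kept theirs in all 38 such fits, without the low-rRNA libraries and with GC and length correction.

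Sex and cell makeup moved with time in WT. Leaving out the 13 single-sex libraries removes 4 of 6 at ZT12 and 2 of 4 at ZT18, and in that smaller fit 0 of 34 members passed (Cenpa adjusted p = 0.228, Cenpe 0.0879, Kif23 0.307, Anln 0.194), so sex and time were not separated here. Astrocyte markers ran opposite to the members: their mean log2 CPM was 6.09, 5.49, 6.38 and 6.64 from ZT0 to ZT18. Of the 14, 10 varied with time, against 4.91% of all genes, which is also the background for the lists that follow. The summed level of astrocyte markers was 1199 to 2006 CPM at ZT6 against 2011 to 2999 at ZT18. The 3 other marker lists with called genes were also lowest at ZT6. Neuronal markers averaged 4.79, 3.81, 4.67 and 4.54 over the same times (3 of 20 called). Red blood cell markers averaged 4.72, 4.31, 5.33 and 5.10 (5 of 9 called). Markers of neural progenitors, which also divide, averaged 5.06, 4.80, 5.46 and 5.36 (4 of 14 called), and had a within-group r of -0.01 with the members. Microglial markers were highest at ZT6, at 8.61 against 8.36, 8.43 and 8.38, with 0 of 20 called. OPC markers stayed within 9.13 to 9.29, with 0 of 20 called. The part of these markers in the time difference was not tested, and within groups astrocyte and neuronal marker levels had r of -0.01 and -0.21 with the members.

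**Figure D3:**
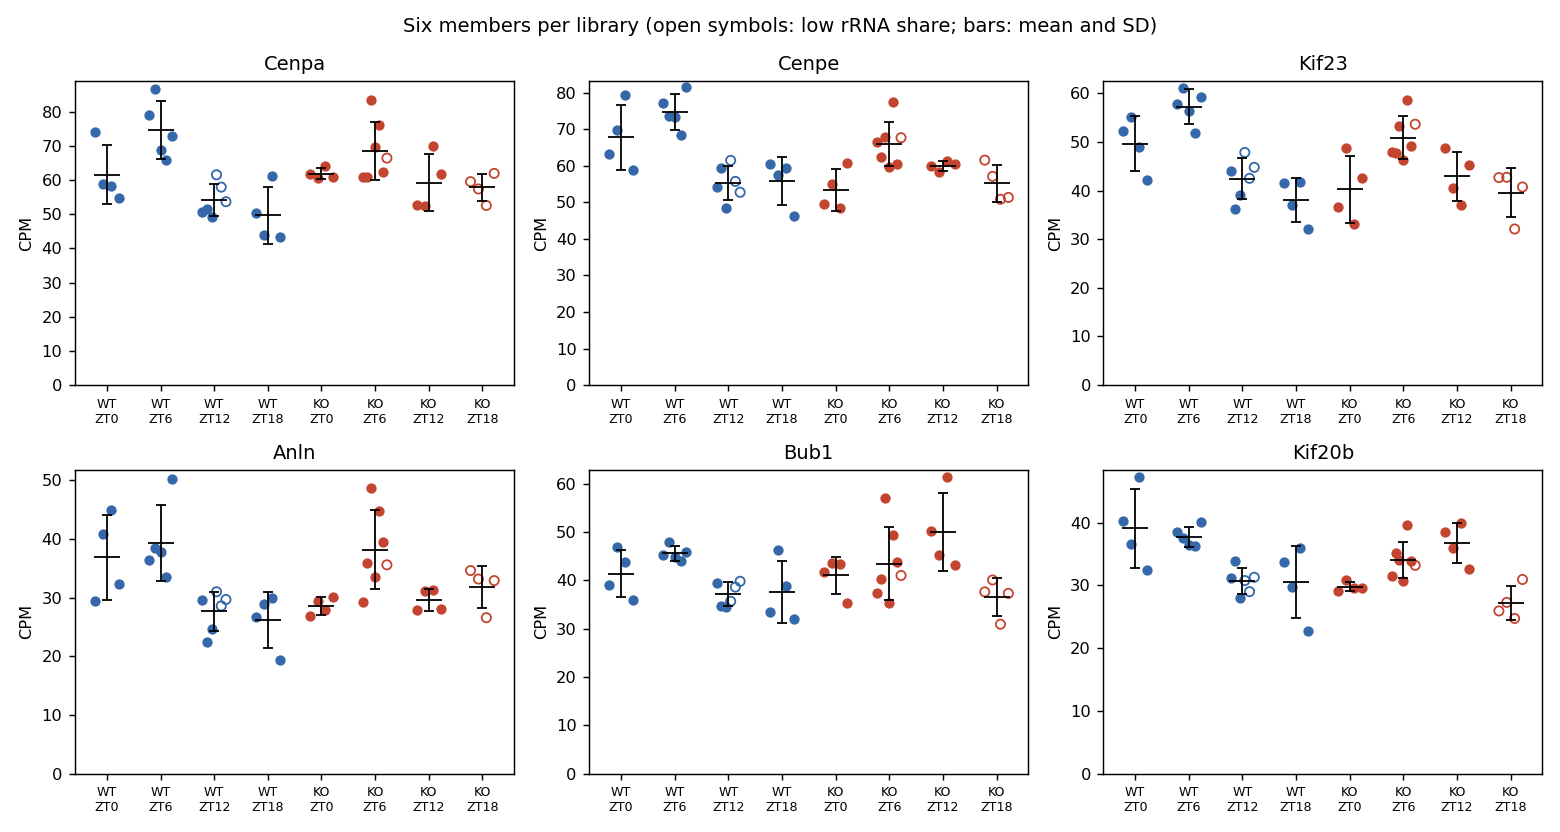
CPM per library (points) of Cenpa, Cenpe, Kif23, Anln, Bub1 and Kif20b in the 8 groups (WT blue, KO red, open symbols for libraries with a low rRNA share), with the mean and SD as bars; the vertical axes start at 0. In WT, the ZT6 points of Cenpa, Cenpe, Kif23 and Anln sit above all ZT12 and ZT18 points, and at ZT12 the KO points of Bub1 sit above all WT points.

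KO cells had the highest mean at ZT6 for 19 of 34 members (21.6% of all genes). Another 8 of 34 peaked at ZT12, a share under the 28.6% of all genes: Top2a, Bub1, Cenpf, Kif20b, Tpx2, Birc5, Ttk and Aspm. The mean over members was 5.64 ± 0.09 (SD, n = 4) log2 CPM at ZT0, 5.74 ± 0.21 (n = 7) at ZT6, 5.64 ± 0.08 (n = 4) at ZT12 and 5.59 ± 0.14 (n = 4) at ZT18. The median difference from ZT6 to ZT18 was -0.16, negative for 33 of 34, and from ZT6 to ZT12 -0.10, negative for 23, against -0.26 and 33 in WT. Time of day was called for 6 of 34, Kif20b, Kif23, Cenpe, Aspm, Anln and Bub1, against 21.9% of all genes, so the share of members is near the background. Markers of other cells varied with time in KO as well: 14 of 20 microglial, 12 of 14 astrocyte, 15 of 20 neuronal, 8 of 12 endothelial, 8 of 9 red blood cell, 7 of 13 oligodendrocyte, 5 of 14 neural progenitor and 8 of 20 OPC markers were called. Microglial markers, which followed the members within groups (r = 0.56), averaged 7.94, 8.81, 8.39 and 8.85 log2 CPM from ZT0 to ZT18, and their summed level was 4937 to 9879 CPM at ZT0 against 9172 to 22560 at ZT6. The part of these markers in the members' course was not tested.

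Kif23 in KO averaged 40.2 ± 6.90, 50.9 ± 4.39, 42.9 ± 5.11 and 39.5 ± 5.06 CPM at ZT0, ZT6, ZT12 and ZT18 (edgeR adjusted p = 0.0167), Anln 28.5 ± 1.5, 38.2 ± 6.67, 29.6 ± 1.93 and 31.8 ± 3.57 (0.0386) and Cenpe 53.5 ± 5.74, 66.1 ± 6.05, 60.0 ± 1.30 and 55.2 ± 5.10 (0.0283). These genes again had their highest mean at ZT6. Cenpa, called in WT, averaged 61.9 ± 1.51, 68.5 ± 8.51, 59.2 ± 8.44 and 57.9 ± 4.00 CPM in KO (adjusted p = 0.183), and its dependence of genotype difference on time was not called (adjusted p = 0.340). Leaving out KO ZT0 replicate 1, KO ZT12 replicate 1 or KO ZT18 replicate 3 or 4 moved the count by over 1.5 times, within a range of 2 to 9. Without the low-rRNA libraries, which leaves no KO library at ZT18, 0 of 34 members passed in KO, and without the single-sex libraries 1 did, Aspm (0.0409), with Kif20b at 0.0618 and Kif23 at 0.144. Kif20b also lost its call with low rRNA as a term (0.0829) and with GC and length correction (0.340), where Kif23 kept it.

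**Figure D4:**
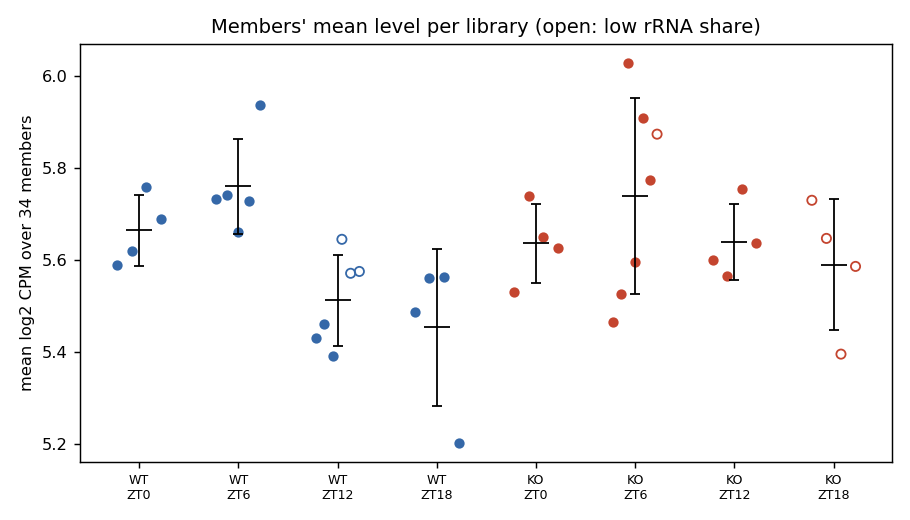
Mean log2 CPM over the 34 members in each library (points; open symbols for a low rRNA share) by genotype and time, with the group mean and SD as bars. WT runs from 5.76 at ZT6 down to 5.45 at ZT18, KO stays between 5.59 and 5.74, and within WT ZT12 the 3 open symbols lie above the 3 filled ones. Those 3 filled ones were all female only.

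No member was called between the genotypes over the day as a whole. KO against WT over all times gave a median log2 fold change of 0.08 over the 34 members, positive for 27, against -0.02 and 45.6% over all genes tested, and 0 of 34 passed (0.0921% of all genes did). Unadjusted p was under 0.05 for 10 of 34, against 15.1% of all genes. DESeq2 called 1, Cdca3, given without the share of all genes it called. Cdca3 had the smallest edgeR p (log2 fold change 0.21 ± 0.06 SE, adjusted p = 0.106), followed by Ccnb1 (0.17 ± 0.06, 0.151) and Cdc20 (0.18 ± 0.07, 0.224). The range over members ran from -0.15 for Ccnf to 0.21 for Cdca3.

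At ZT0, 0 of 34 members passed the edgeR test, against 0.285% of all genes, and the median log2 fold change was -0.01, positive for 15. Unadjusted p was under 0.05 for 7, against 18.4% of all genes. DESeq2 called 4, given without the share of all genes it called, so this count does not set the members apart. All 4 genes of cyclins and Cdk1 had positive values (0.08 to 0.19), while 8 of the 10 spindle and cytokinesis genes had negative ones, with a median of -0.14. The other roles held values of both signs, apart from Mki67 and Top2a, both negative. Kif20b counted 40.2, 36.5, 47.2 and 32.4 CPM in WT and 29.1, 30.9, 29.7 and 29.5 in KO, so that KO lay wholly below WT (log2 fold change -0.39 ± 0.11, adjusted p = 0.0659). Cdca3 went the other way, with 37.3, 34.1, 35.6 and 45.5 CPM in WT and 41.1, 56.5, 58.6 and 46.7 in KO, which overlap (0.41 ± 0.13, 0.0803). Cenpe gave -0.34 ± 0.10 (0.0720). KO libraries lay wholly below WT for Kif20b, Prc1 and Ccnf, as for 2.64% of all genes, and wholly above for 0 members, as for 2.6%. Without KO ZT0 replicate 4 or WT ZT0 replicate 4 up to 4 members were called, again without the share of all genes in those fits. Microglial markers were lower in 20 of 20 at this time, with a median of -0.49 and 0 called; their part in these values was not tested.

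At ZT6, 0 of 34 passed, against 0.0132% of all genes, and 1, against 4.39%, had an unadjusted p under 0.05 (Cenpe, log2 fold change -0.18 ± 0.08, adjusted p = 0.974). Kif23 gave -0.17 ± 0.10 and Kif20b -0.15 ± 0.09. DESeq2 also called 0. The median was -0.02, positive for 13. KO spread widely here: Cdc20 ranged from 44.9 to 94.0 CPM in KO, with a median of 64.9, and counted 58.4, 56.1, 52.6, 53.6 and 64.3 in WT. Plk1 ranged from 23.7 to 45.7 in KO and from 25.5 to 41.7 in WT.

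At ZT12, when lights go off, the members leaned towards KO. The median log2 fold change was 0.15 (-0.01 over all genes), positive for 28 of 34, and 1 of 34 passed, Bub1, against 5% of all genes in either direction and 1.31% upward. All 6 centromere and kinetochore genes (0.11 to 0.27) and all 10 spindle and cytokinesis genes (0.02 to 0.38) had positive values, whereas the kinases ran from -0.26 for Plk1 to 0.43 for Bub1. With GC and length correction 5 of the 6 and 9 of the 10 were positive, and without the single-sex libraries all 6 and 8 of the 10. Unadjusted p was under 0.05 for 9, against 20.1% of all genes.

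Bub1, the kinase that recruits checkpoint proteins and shugoshin to the centromere, ranged from 34.5 to 39.8 CPM over the 6 WT libraries at ZT12, with a median of 37.1, and counted 50.1, 45.3, 61.4 and 43.2 in KO. Every KO library was above every WT library, as for 2.12% of all genes. The log2 fold change was 0.43 ± 0.11 SE, or 1.35-fold (edgeR adjusted p = 0.0228). At other times Bub1 gave -0.01, -0.07 and -0.05 at ZT0, ZT6 and ZT18. The call was lost without WT replicate 4, KO replicate 1 or KO replicate 3 (adjusted p up to 0.168). It was also lost when the low-rRNA libraries were left out (0.47, adjusted p = 0.259), with low rRNA as a term (0.43, 0.119), without the single-sex libraries (0.35, 0.251) and with GC and length correction (0.28, 0.292). Of the 6 WT libraries at ZT12, 4 were female only, and 0 of the 4 KO libraries were of a single sex. Without the low-rRNA libraries only WT replicates 1 to 3 remained at ZT12, all female only. Without the single-sex libraries only WT replicates 5 and 6 remained, both with low rRNA. Neither fit was thus free of both differences.

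Aspm came next, ranging from 57.0 to 73.9 CPM in WT, median 63.2, and at 85.2, 76.0, 102 and 73.7 in KO (0.38 ± 0.12, adjusted p = 0.0541), with KO replicate 4 just inside the WT range. Ccnb1 ranged from 61.0 to 74.2 in WT, median 68.2, and counted 70.2, 74.7, 96.1 and 90.6 in KO (0.29 ± 0.11, 0.109). Within WT ZT12, the mean over members was 5.57 to 5.65 log2 CPM in the 3 low-rRNA libraries and 5.39 to 5.46 in the other 3, without overlap, against 5.57 to 5.76 in KO. The other 3 were all female only, whereas low-rRNA replicates 5 and 6 carried both sexes, so sex and rRNA share were not separated here. Without the low-rRNA libraries the median over members was 0.23, larger than with them, but 0 passed, with fewer WT libraries. OPC markers were lower in KO at this time in 15 of 20, with a median of -0.32. Of the 20, 5 were called (Cspg4, C1ql1, Neu4, Bcan and Cspg5), against 5% of all genes. Whether that bears on the members was not tested.

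At ZT18, 0 of 34 passed, against 2.14% of all genes, with 7 at an unadjusted p under 0.05 (18.2% of all genes), and DESeq2 called 0. The median log2 fold change was 0.13 (-0.00 over all genes), positive for 26. Cdc20 counted 41.8, 46.8, 48.6 and 38.3 CPM in WT and 64.5, 62.3, 52.1 and 59.5 in KO, without overlap (0.44 ± 0.15 SE, adjusted p = 0.106). Cdca3 counted 36.4, 37.1, 40.7 and 33.2 in WT and 50.3, 46.6, 45.8 and 43.1 in KO, also without overlap (0.34 ± 0.13, 0.136). Cdca8, the borealin subunit of the passenger complex, overlapped, with 40.0, 42.0, 38.8 and 28.0 in WT and 53.3, 45.7, 41.0 and 48.0 in KO (0.34 ± 0.13, 0.159). KO was wholly above WT for Cdc20, Cdca3 and Ube2c, 3 of 34, against 10.4% of all genes, a share near the background. All 4 KO ZT18 libraries had a low rRNA share and no WT ZT18 library did, so rRNA share and genotype cannot be told apart at this time. With low rRNA as a term in the model, estimated from the other times, the median over members was 0.00, and 9 of 34 changed sign, Plk1 among them. Without the single-sex libraries it was 0.02. Oligodendrocyte markers were higher in 12 of 13 with 4 called (median 1.17), microglial markers in 20 of 20 and red blood cell markers in 9 of 9, with 0 called in both; their part was not tested.

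Dependence of the genotype difference on time was called for 1 of 34 members, Kif20b (edgeR adjusted p = 0.0184), against 9.19% of all genes. Kif20b, a kinesin of late cytokinesis also known as Mphosph1, gave log2 fold changes of -0.39, -0.15, 0.26 and -0.17 in the order of the 4 times. Its KO means were 29.8 ± 0.76, 34.02 ± 2.91, 36.8 ± 3.22 and 27.2 ± 2.69 CPM, with its peak at ZT12, whereas in WT it was highest at ZT0. The ZT12 libraries counted 38.5, 36.0, 39.9 and 32.6 in KO and 28.1 to 33.9 in WT, median 31.0. Aspm (adjusted p = 0.0527), Cenpe (0.0756) and Bub1 (0.0818) followed. The call of Kif20b was lost without KO ZT12 replicate 1 or 3 (up to 0.0568), without the low-rRNA libraries (0.205) and with GC and length correction (0.586).

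The difference between genotypes varied with the base composition of the transcripts. The GC content of the longest annotated transcript ran from 39.4% for Kif20b to 56.0% for Plk1. Spearman's rho across the 34 members between GC and the log2 fold change was -0.76 at ZT12, where Bub1, Aspm, Ttk (0.37) and Birc5 (0.34) were highest and Plk1 lowest. At ZT18 it was 0.67, with Cdc20, Plk1 (0.39) and Aurka (0.36) highest and Kif20b (-0.17) lowest. Over all 22780 genes with a GC value rho was -0.42 and 0.38, the same signs as among the members. With gene length rho was -0.61 at ZT0, -0.60 at ZT6, 0.37 at ZT12 and -0.61 at ZT18, against 0.04, -0.04, 0.00 and 0.05 over all genes tested. It thus had the opposite sign at ZT12. At ZT0 the 17 members over the median length of 4748 bases had a median of -0.11 and the 17 below it 0.13. These are correlations across genes, which are not independent replicates. With a correction for GC and length in each library, the median over members was 0.09 at ZT12 and 0.20 at ZT18, and 0 members were called at either time. The correction turned the sign of 5 members at ZT12, Cdc20 among them (-0.14 to 0.10), and of 5 at ZT18, Kif20b among them (-0.17 to 0.08).

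**Figure D5:**
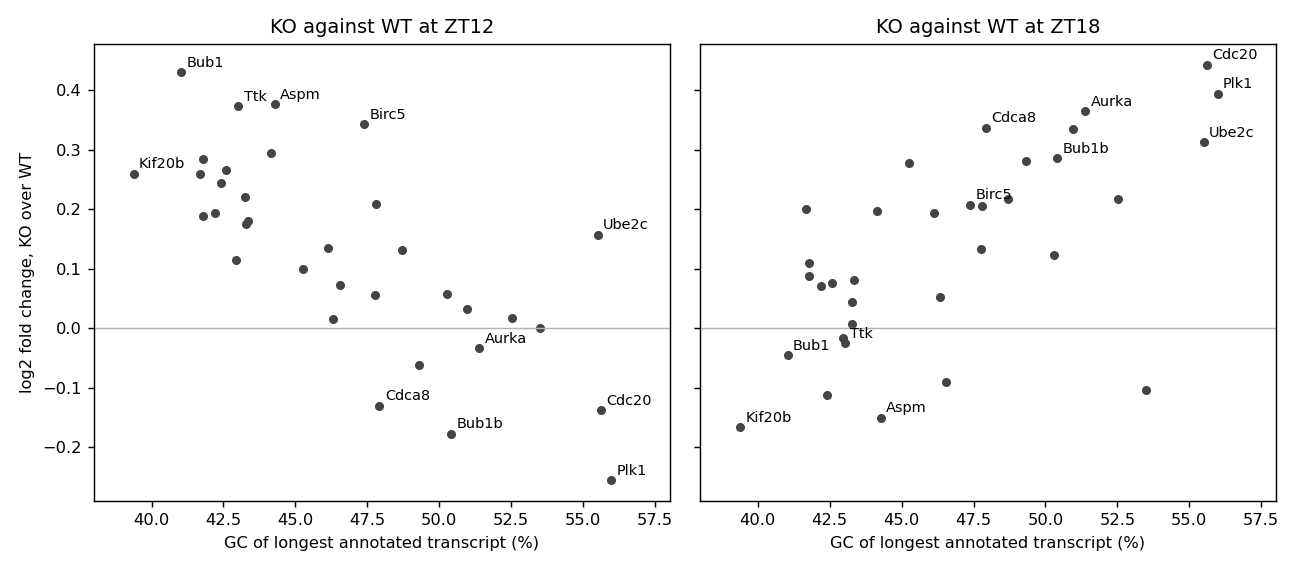
Log2 fold change of KO over WT (vertical axis) against the GC content of the longest annotated transcript in percent (horizontal axis) for each of the 34 members (points) at ZT12 (left) and ZT18 (right). The points fall from left to right at ZT12 (rho -0.76) and climb at ZT18 (rho 0.67), so that Plk1 and Cdc20 lie near the bottom in the left panel and at the top in the right panel.

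Other genes of mitosis were also mostly highest at ZT6 in WT. Of 75 further mitosis genes, 55 had their highest WT mean at ZT6 (26.6% of all genes) and 18 passed the time test in WT (4.91% of all genes). In KO 40 were highest at ZT6 (21.6%) and 19 passed, near the 21.9% of all genes. Gas2l3, a cytokinesis linker of actin and microtubules, averaged 26.8 ± 1.11, 44.4 ± 4.03, 23.7 ± 5.28 and 23.9 ± 3.90 CPM in WT from ZT0 to ZT18 (edgeR adjusted p = 0.000117) and 22.8 ± 3.50, 38.5 ± 8.04, 23.5 ± 5.92 and 22.9 ± 3.81 in KO (0.000441). Wee1, the kinase that holds Cdk1 inactive and a known clock-controlled gene, averaged 23.7 ± 0.98, 38.6 ± 4.89, 27.1 ± 5.88 and 25.3 ± 3.63 in WT (0.00448) and 25.2 ± 2.33, 38.8 ± 9.18, 21.4 ± 2.91 and 28.4 ± 2.74 in KO (0.000293). Gas2l3 and Wee1 were thus highest at ZT6 in both genotypes. Without the single-sex libraries 2 of 75 passed in WT.

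At ZT12, 10 of the 75 rose in KO (1.31% of all genes) and 1 fell. Among those that rose were 4 condensin subunits (Smc2, Smc4, Ncapg and Ncapg2), the centromere protein Cenpk, the kinetochore scaffold Knl1, the checkpoint protein Mad2l1, the spindle motor Kif15 and Depdc1a. Troap, a spindle-associated protein, fell by 0.50 on the log2 scale. Kif15 averaged 46.1 ± 2.70 CPM in WT (n = 6) and 59.2 ± 4.25 in KO (n = 4) at ZT12, a log2 fold change of 0.36 ± 0.10 (edgeR adjusted p = 0.0253), and was lower in KO at ZT0, at 43.1 ± 5.73 against 59.6 ± 8.79 (-0.47 ± 0.11, 0.0464). Fzr1, the APC/C activator of late mitosis and G1, rose at ZT18 (0.44 ± 0.10, edgeR adjusted p = 0.0205). It was the only call at ZT18, 1 of 75, against 2.14% of all genes. At this time rRNA share and genotype cannot be told apart. The interaction was called for 10 of 75, against 9.19% of all genes, Kif15 and Ncapg among them. Of the 11 calls at ZT12, 0 were made without the low-rRNA libraries (median 0.18), with low rRNA as a term or with GC and length correction, and without the single-sex libraries there were 3, all lower in KO. The WT ZT12 libraries left by the low-rRNA exclusion were all female only, and those left by the single-sex exclusion all had low rRNA.

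Regulators of these genes were followed with the remaining lists. Among 14 APC/C subunits and 14 genes of the DREAM and B-MYB complexes, 0 passed the edgeR test in any comparison of the genotypes or in the interaction, with 4 and 3 at an unadjusted p under 0.05 over all times. DESeq2 called 1 subunit of the anaphase-promoting complex at ZT12 and 1 in the interaction, limma-voom called 1 at ZT12, and neither called a member of the DREAM list in these comparisons. In the WT time test 0 APC/C subunits passed, and 1 DREAM gene did, Lin54 (edgeR adjusted p = 0.00361), against 4.91% of all genes. In KO 1 of each list passed, Anapc4 (0.000628) and Tfdp2 (0.0267), against 21.9%. Over all times the smallest p-values were those of the APC/C subunits Anapc11 (log2 fold change 0.19 ± 0.05, adjusted p = 0.126) and Anapc13 (0.27 ± 0.08, 0.127) and of the chromatin adaptor Rbbp4 (0.16 ± 0.05, 0.126). Of 58 DNA replication and S phase genes, 1 rose at ZT12, near the 1.31% of all genes. It was Hells, a chromatin remodeller (0.38 ± 0.10, edgeR adjusted p = 0.0185). Time of day was called for 3 in WT (Pcna, Cdt1 and Atad2), near the 4.91% of all genes, and for 10 in KO, under the 21.9%. The interaction was called for 6, near the 9.19%. WT means of the 58 genes peaked at all times alike, with 16, 14, 16 and 12 genes highest at ZT0, ZT6, ZT12 and ZT18.

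Among 14 G1 regulators, 3 inhibitors of cyclin-dependent kinases and Rb1 were called in comparisons of the genotypes. At ZT12 2 of the 14 passed, against 5% of all genes, and at ZT18 2, against 2.14%. The interaction was called for 4 of the 14, against 9.19% of all genes. Time of day was called for 1 in WT, against 4.91% of all genes, and for 5 in KO, against 21.9%. Cdkn1a (p21), which stops the cycle in G1 and G2, averaged 50.7 ± 20.8, 108 ± 10.7, 66.1 ± 21.8 and 43.6 ± 11.8 CPM in WT from ZT0 to ZT18 (time of day, edgeR adjusted p = 0.000417), and 38.7 ± 11.9, 101 ± 23.1, 36.8 ± 4.50 and 63.9 ± 4.05 in KO (2.67e-05). It therefore peaked at ZT6, as the mitotic genes did, and was lower in KO at ZT12 (-0.85 ± 0.23, 0.0251). Cdkn2c (p18) and Cdkn2d (p19) rose in KO at ZT18, by 0.58 ± 0.15 (0.0334) and 0.76 ± 0.17 (0.0193). Cdkn2c counted 31.1 to 49.6 CPM in WT and 56.1 to 74.7 in KO at that time, without overlap. Rb1, the retinoblastoma protein, rose at ZT12 (0.27 ± 0.08, 0.0388). With low rRNA as a term in the model or with GC and length correction, 0 of the 14 were called at ZT12 or ZT18.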

How the data were processed

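RNA of purified mouse OPCs was poly-A selected and sequenced as paired ends, per the labels' protocols. The authors deposited whole-number read counts per gene, unnormalized, for 54532 genes in 38 libraries. Per the submitters' processing notes, fastp, HISAT2 2.0.5 and featureCounts 1.5.0-p3 were used with the GRCm38 genome, and neither the strand setting nor the annotation release is stated in those notes or the labels. Reads shared by overlapping or near-identical genes may therefore be split uncertainly.

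Genes passing filterByExpr of edgeR 4.0.16 (22798 genes, 99.95% of counts) were scaled by TMM and fitted with a quasi-likelihood model over 8 groups under R 4.3.3. There were 8 tests, each with Benjamini-Hochberg adjustment over every gene tested and calls at an adjusted p under 0.05. Fold changes are KO over WT. Means carry the SD and fold changes the SE. Libraries of a group came from separate pools of mice, and none matched within sampling noise. Replicate numbers were treated as names: same-numbered WT and KO libraries of a time correlated at -0.45 to 0.62, with 9 of 17 pairs over 0.1.

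All 34 members were named. Values were given in full for 10 well-known ones, the 3 smallest p-values of each comparison and the highest and lowest by length, and other genes were the 15 nearest and up to 4 per list, with called genes of the lists named after their values were seen. The members, the lists and most choices were made with earlier results of these data known. Alternatives were RLE scaling, library size alone, other filters, DESeq2 1.42.0, limma-voom (limma 3.58.1), a replicate block, leaving out each library, the 8 low-rRNA (under 0.3%) or the 13 single-sex libraries, low rRNA as a factor, and, added after seeing the data, GC and length correction. The model was tested on simulated data. The values of 1 gene of the lists are not reported here.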

Additional observations from a re-analysis of the deposited data

Results flagged for a closer look

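Within groups of 4 to 7 libraries, 9 of 152 checks found a library far from the others of its group by Dixon's criterion. This was 5.92%, where chance gives about 1 in 20. Of the checks, 144 were of 18 members in the 8 groups and 8 of the mean over all members. WT ZT6 replicate 5 stood high for Mki67, at 468 CPM against 359 to 373 in the other 4, for Top2a, at 299.6 against 230.5 to 246, and for Plk1, at 41.7 against 25.5 to 29.0. Plk1 was low in WT ZT18 replicate 4, at 24.1 CPM against 29.3 to 30.1. At WT ZT0, Ccnb1 was high in replicate 4, at 84.7 CPM against 69.8 to 70.7, and Aspm was low in replicate 2, at 75.9 against 82.3 to 82.8. In KO, Ube2c was high in ZT6 replicate 3, at 97.2 CPM against 52.4 to 66.5, Birc5 was high in ZT12 replicate 3, at 55.6 against 31.9 to 35.2, and Aurkb was low in ZT18 replicate 3, at 28.2 against 35.8 to 36.5.

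The KO and WT difference of Kif20b differed between times by the test of the interaction itself (edgeR adjusted p = 0.0184). It was negative at ZT0, ZT6 and ZT18 and positive at ZT12. Kif20b was the only call, 1 of 34 members, against 9.19% of all genes. The call was lost without KO ZT12 replicate 1 or 3 and without the low-rRNA or the single-sex libraries. It was also lost with low rRNA as a factor and with GC and length correction.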

How the results depend on the processing

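The median log2 fold change of the members, near 0 at ZT0 and ZT6, took both signs there over the alternatives other than leaving out single libraries (-0.04 to 0.03 and -0.05 to 0.03). It ran from 0.09 to 0.23 at ZT12, from 0.00 (low rRNA as a factor) to 0.20 at ZT18 and from 0.03 to 0.09 over all times. The within-group SD of the members' mean, 0.13, is about as large as the medians at ZT12 and ZT18. This SD describes single libraries and is not the error of a difference between groups. Single members without a call changed sign, with GC and length correction 4, 10, 5 and 5 of 34 from ZT0 to ZT18, among them Bub1 at ZT6 (-0.07 to 0.02) and ZT18 (-0.05 to 0.12), and Plk1 at ZT18 with low rRNA as a factor. Counts of called members also moved. Counts under an alternative, here, above and below, are given without the share of all genes called under the same setting. A larger count therefore does not set the members apart from other genes. At ZT0, 2 were called with a mean CPM of at least 1 and 4 with DESeq2, against 0. Bub1 at ZT12 was joined by Aspm, giving 2, under RLE, library size alone, a mean CPM of at least 1, DESeq2 and limma-voom, and 0 were called without low-rRNA libraries, with low rRNA as a factor, without single-sex libraries and with GC and length correction. Over all times DESeq2 called 1. For the interaction 4 were called under RLE, library size alone, a mean CPM of at least 1 and DESeq2, 2 under limma-voom, and 0 under the same 4 settings that gave 0 at ZT12. Time of day in WT gave 12 with DESeq2 and 0 without single-sex libraries. Time of day in KO gave 0 without low-rRNA libraries, 2 with low rRNA as a factor, 1 without single-sex libraries and 3 with GC and length correction. With the replicate number as a block the counts were 2 at ZT12, 2 for the interaction and 3 for time in KO, and it left the other counts within 1.5 times; 10 of 38 libraries correlated best with one of their own number.

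Leaving out each library in turn gave 0 to 4 calls at ZT0, 0 to 2 at ZT12, 0 to 1 over all times, 0 to 3 for the interaction, 5 to 8 for time in WT and 2 to 9 for time in KO, and 0 at ZT6 and ZT18. The call over all times came without WT ZT0 replicate 4. The count at ZT12 fell to 0 without KO ZT12 replicate 1 or 3 or WT ZT12 replicate 4, and was 2 without KO ZT12 replicate 2 or 4, KO ZT18 replicate 1, KO ZT6 replicate 3, either of KO ZT0 replicates 3 and 4, or, among WT, ZT18 replicate 4 or ZT6 replicate 5. The interaction gave 0 without KO ZT12 replicate 1 or 3. It gave 3 without replicate 4 of either genotype at ZT0 or KO ZT6 replicate 3, and 2 without KO ZT6 replicate 5 or 6, KO ZT12 replicate 4, KO ZT18 replicate 1, or, among WT, ZT18 replicate 4 or ZT12 replicate 4 or 5. Time in KO gave 3 without KO ZT0 replicate 1, KO ZT12 replicate 1 or KO ZT18 replicate 3, and 2 without KO ZT18 replicate 4. In KO, the time calls of Kif20b and Kif23 held in all 38 of these fits but not under all other alternatives, and those of Bub1, Cenpe, Anln and Aspm were lost in 6, 5, 9 and 4. The causes were not tested. Each member had at least 333 counts in every library. Without low-rRNA libraries no value could be given at ZT18.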
